A study of Mus musculus with 10 samples.

Results

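The genes described here are 38 genes of the interferon response and of antigen presentation by MHC class I, chosen by symbol out of 28196 genes in the tables of the series, 17793 of them in the bulk table. They comprise 17 effectors, 1 feedback brake, 4 transcription factors, 4 genes of RNA sensing, 3 genes of ADP-ribosylation and ubiquitin transfer, and 9 genes of antigen presentation. At least 1 unique molecular identifier (UMI), the tag that marks a single captured transcript, was found for 32 of them in differentiated TSCs, 31 in blastoid pTSCs, 27 in pTSCs and 35 in TSCs. The bulk table lists all 38.

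All cells were mouse trophoblast stem cells (TSCs) on a C57BL/6J background, profiled with CEL-Seq2, which counts the 3′ ends of transcripts. The 4 single-cell groups carried a randomly integrated GFP cassette and had 1 library each, from 1 plate of 384 wells. These were TSCs labelled as line F4 and differentiated for 6 days in Tx medium without Fgf4, Tgfb and heparin, pTSCs of line pTS1 taken out of blastoids (blastocyst-like assemblies), newly derived pTSCs in LT21 medium, and F4 TSCs in Tx medium. Bulk RNA came from TSCs in Tx medium that carried eGFP knocked in at the CDX2 coding sequence, from 3 sorts of the CDX2-high and 3 of the CDX2-low fraction.

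Interferons act through surface receptors, the kinases JAK1 and TYK2 and transcription factors that include STAT2 and IRF9, which bind a promoter element named ISRE and switch on the interferon-stimulated genes. The products of these genes sense or degrade viral RNA, block viral entry and load peptides on MHC class I, which a light chain, B2M, holds at the cell surface. Stem cells of several kinds are known to hold a subset of these genes at a basal level without an infection, and trophoblast is known for its restricted display of classical MHC class I.

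A well entered the single-cell sums when it held 2000 UMIs or more that were not mitochondrial, which left 257 to 318 wells and 2315931 to 5388767 UMIs per library. The TSC library was the deepest, where the other three had medians of 6844 to 8473 UMIs per well and TSCs 15091. Mitochondrial UMIs made up 22.9% of all UMIs in the kept wells of differentiated TSCs, 19.3% in blastoid pTSCs, 15.1% in pTSCs and 13.8% in TSCs. The library labelled as differentiated F4 held 226 UMIs from the Y chromosome and 14 of Xist, against 0 and 1515 in the TSC library labelled as F4, so line and differentiation cannot be told apart in that comparison. All libraries use the same well numbers, and wells with the same number were about as alike as all pairs (median r 0.398 and 0.393 between differentiated TSCs and TSCs). Markers of immune cells summed to 9.22, 47.1, 15.2 and 19.1 CPM (UMI counts scaled to a common total of all UMIs in the library) in differentiated TSCs, blastoid pTSCs, pTSCs and TSCs, nearly all from Cd68 and Csf1r, while Ptprc, Cd3e, Itgam, Lyz2 and Tyrobp had 0 to 3 UMIs in each library. Fibroblast markers summed to 9.28 to 39.8 CPM. All 11 TSC markers had UMIs in each of the 4 libraries, with Eomes at 119, 300.1, 581 and 377 CPM in the same order. Cdx2 stood at 2.46, 32.8, 54.6 and 49.9 CPM, and Krt8 ran the other way with 2224, 1695, 882 and 350. In differentiated TSCs Elf5, Esrrb and Tfap2c had 2, 3 and 3 UMIs, against 204, 11 and 38 in TSCs, so Esrrb was scarce in both. Sox2 stood at 297 CPM in differentiated TSCs and 760 in TSCs, Gata3 at 347 and 487, and Tead4 at 169 and 111. Since the bulk and single-cell tables were counted and scaled separately, levels are tested only within each, and CPM of a gene depends on how its transcripts were counted, so levels are not compared between genes.

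With 1 library per group there is no test between the single-cell groups. Ratios of CPM are given with an exact 95% interval that covers counting error only, and a gene counts as measured in a comparison with at least 10 UMIs over both libraries. A count of 0 stands at the limit of 3 UMIs per library.

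Most interferon-stimulated genes stood at their highest level in TSCs. Isg15, a ubiquitin-like protein that is joined to other proteins in the interferon response, had 8.30 CPM in differentiated TSCs, 3.45 in blastoid pTSCs, 1.64 in pTSCs and 159 in TSCs. The TSC value was thus far outside the counting intervals of the other three, which reached 12.1 CPM at most. Rtp4, a chaperone of G protein-coupled receptors and an interferon-induced regulator, stood at 29.2 CPM in differentiated TSCs, 11.2 in blastoid pTSCs, 1.23 in pTSCs and 209 in TSCs. The guanylate-binding GTPase gene Gbp7 stood at 17.2, 2.16, 1.64 and 114 CPM in the same order. For both genes the 4 intervals were apart, except that those of blastoid pTSCs and pTSCs overlapped for Gbp7.

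**Figure D1:**
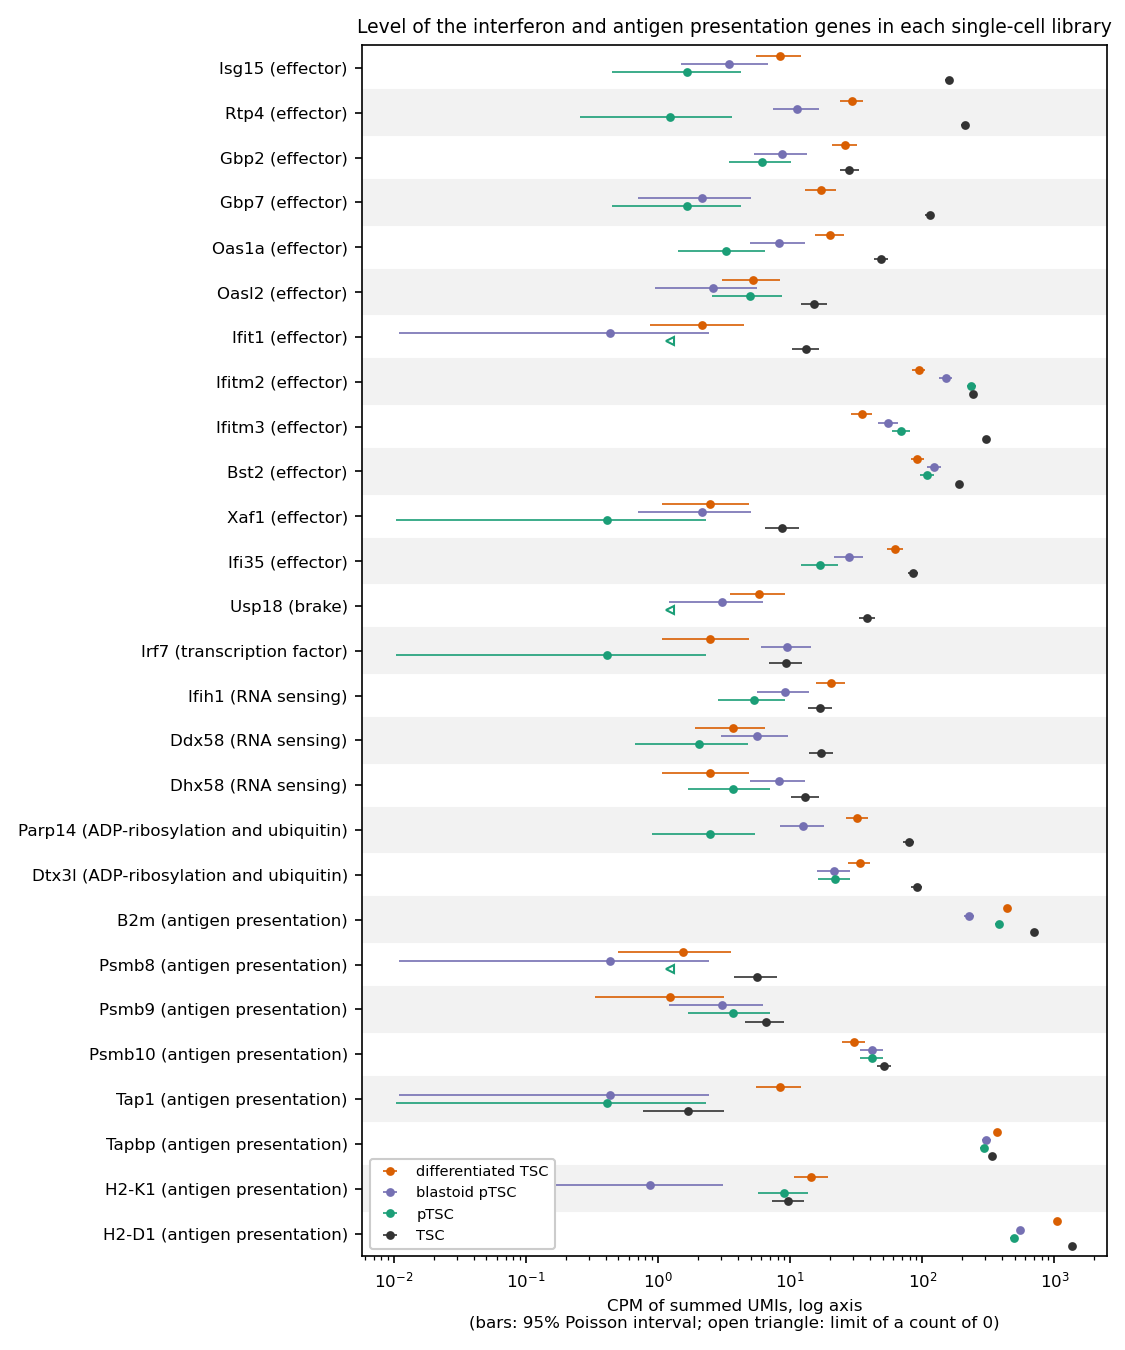
CPM of the summed UMIs (x axis, logarithmic) of the 27 genes that reached 20 UMIs in at least 1 single-cell library (y axis, with their role), in differentiated TSCs, blastoid pTSCs, pTSCs and TSCs, with 95% Poisson intervals. TSCs are highest for Isg15 (159 CPM), Rtp4 (209 CPM) and Gbp7 (114 CPM), while the 4 libraries lie close together for Tapbp (294 to 368 CPM).

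Of the 38 genes, 28 were measured in differentiated TSCs against TSCs, 7 of them only through the TSC library. At least 2-fold higher was 1 gene and at least 2-fold lower were 18, where 17.5% of all 12158 measured genes were as much higher and 18.0% as much lower. Among the 20 genes with at least 10 UMIs in both libraries, 12 were at least 2-fold lower and 0 higher, where 12.1% of all 8878 such genes were lower and 14.8% higher. Isg15 was 19.2-fold lower in differentiated TSCs (interval 13.1 to 29.3). Ifitm3, which hinders virus entry at endosomes, was 8.72-fold lower (7.21 to 10.7), at 34.7 CPM in differentiated TSCs and 303 in TSCs. Rtp4 was 7.17-fold lower (5.81 to 8.94) and Gbp7 6.63-fold lower (5.04 to 8.88). The brake Usp18, a protease that strips ISG15 from proteins and dampens the type I receptor, was 6.55-fold lower (4.09 to 11.1), with 5.84 CPM in differentiated TSCs and 38.2 in TSCs.

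The effectors Gbp2 and Ifi35 and the RNA sensing gene Ifih1 were less than 2-fold apart. Gbp2 stood at 25.8 CPM in differentiated TSCs and 28.0 in TSCs, a log2 ratio of -0.12 (interval -0.52 to 0.28), but the ratio was -0.74 without the 5% deepest wells and -0.70 as the mean of per-well CPM. Ifi35, a cytoplasmic partner of Nmi, stood at 62.1 and 85.0 CPM, 1.37-fold lower (1.16 to 1.62). Ifih1, which encodes the sensor MDA5 of long double-stranded RNA, stood at 20.3 and 16.9 CPM, with an interval from 1.16-fold lower to 1.67-fold higher. Ddx58, which encodes the related sensor RIG-I, was 4.63-fold lower (2.53 to 9.29), and Dhx58, which encodes their regulator LGP2, 5.28-fold lower (2.54 to 12.7).

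The other genes at least 2-fold lower in differentiated TSCs covered most roles. Bst2, a membrane protein that tethers budding virus, had 91.6 CPM in differentiated TSCs, 122 in blastoid pTSCs, 108 in pTSCs and 190.2 in TSCs. Dtx3l, a ubiquitin ligase that works with PARP9, had 33.5, 21.6, 21.7 and 90.6 CPM in the same order, and Parp14, an ADP-ribosyltransferase, 32.3, 12.5, 2.46 and 78.9. For Bst2 and Dtx3l the 3 other libraries lay close together and below TSCs. Oas1a, a synthetase that activates RNase L, had 19.97, 8.20, 3.28 and 48.4 CPM, and its relative Oasl2 5.22, 2.59, 4.92 and 15.2. Irf7, the factor that amplifies interferon transcription, had 2.46, 9.50, 0.410 and 9.28 CPM, so that blastoid pTSCs stood at the level of TSCs. Xaf1, an interferon-induced partner of the apoptosis inhibitor XIAP, had 2.46, 2.16, 0.410 and 8.72 CPM. With the mean of per-well CPM, Bst2 (log2 ratio -0.95), Oas1a (-0.90) and Oasl2 (-0.82) were less than 2-fold lower in differentiated TSCs.

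Other lists moved in the same comparison. Of 11 measured markers of trophoblast stem cells 7 were at least 2-fold lower and 1 higher in differentiated TSCs, of 11 measured G2 and M phase genes 7 were lower, and of 10 differentiated trophoblast genes 8 were higher and 1 lower. Their part in the lower interferon-stimulated genes was not tested.

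The antigen presentation genes differed less. Of 9, 8 were measured in differentiated TSCs against TSCs, with 1 higher and 2 lower by at least 2-fold. Of the 20 measured genes outside this group 16 were lower, where 18.0% of all measured genes were. The 2 lower genes were measured only through the TSC library, as were Ifit1, Irf7, Dhx58 and Xaf1 among the 16. The higher gene was measured only through differentiated TSCs. All 12 lower genes with at least 10 UMIs in both libraries lay outside this group. H2-D1, a classical class I heavy chain, stood at 1049 CPM in differentiated TSCs and 1354 in TSCs, 1.29-fold lower (1.24 to 1.34). B2m stood at 434 and 705 CPM, 1.62-fold lower (1.53 to 1.73). Tapbp, the peptide-loading chaperone tapasin, stood at 368 and 334 CPM, 1.10-fold higher (1.02 to 1.19). The gene that was at least 2-fold higher was Tap1, a subunit of the peptide transporter, with 27 UMIs in differentiated TSCs and 9 in TSCs, a ratio of 4.97 (2.27 to 12). Its partner Tap2 had 2 and 1. Psmb8 and Psmb9, subunits of the immunoproteasome, which cuts peptides for class I, were lower on few UMIs. Psmb8 had 5 in differentiated TSCs and 30 in TSCs, and Psmb9 had 4 and 35.

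In TSCs 3 of 318 wells held 321, 299 and 231 H2-D1 UMIs, where the library held 7295. Without these wells, left out after their values were seen, H2-D1 stood at 1213 CPM in TSCs, and its log2 ratio was -0.21 in place of -0.37 for differentiated TSCs and -1.31 in place of -1.46 for pTSCs.

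**Figure D2:**
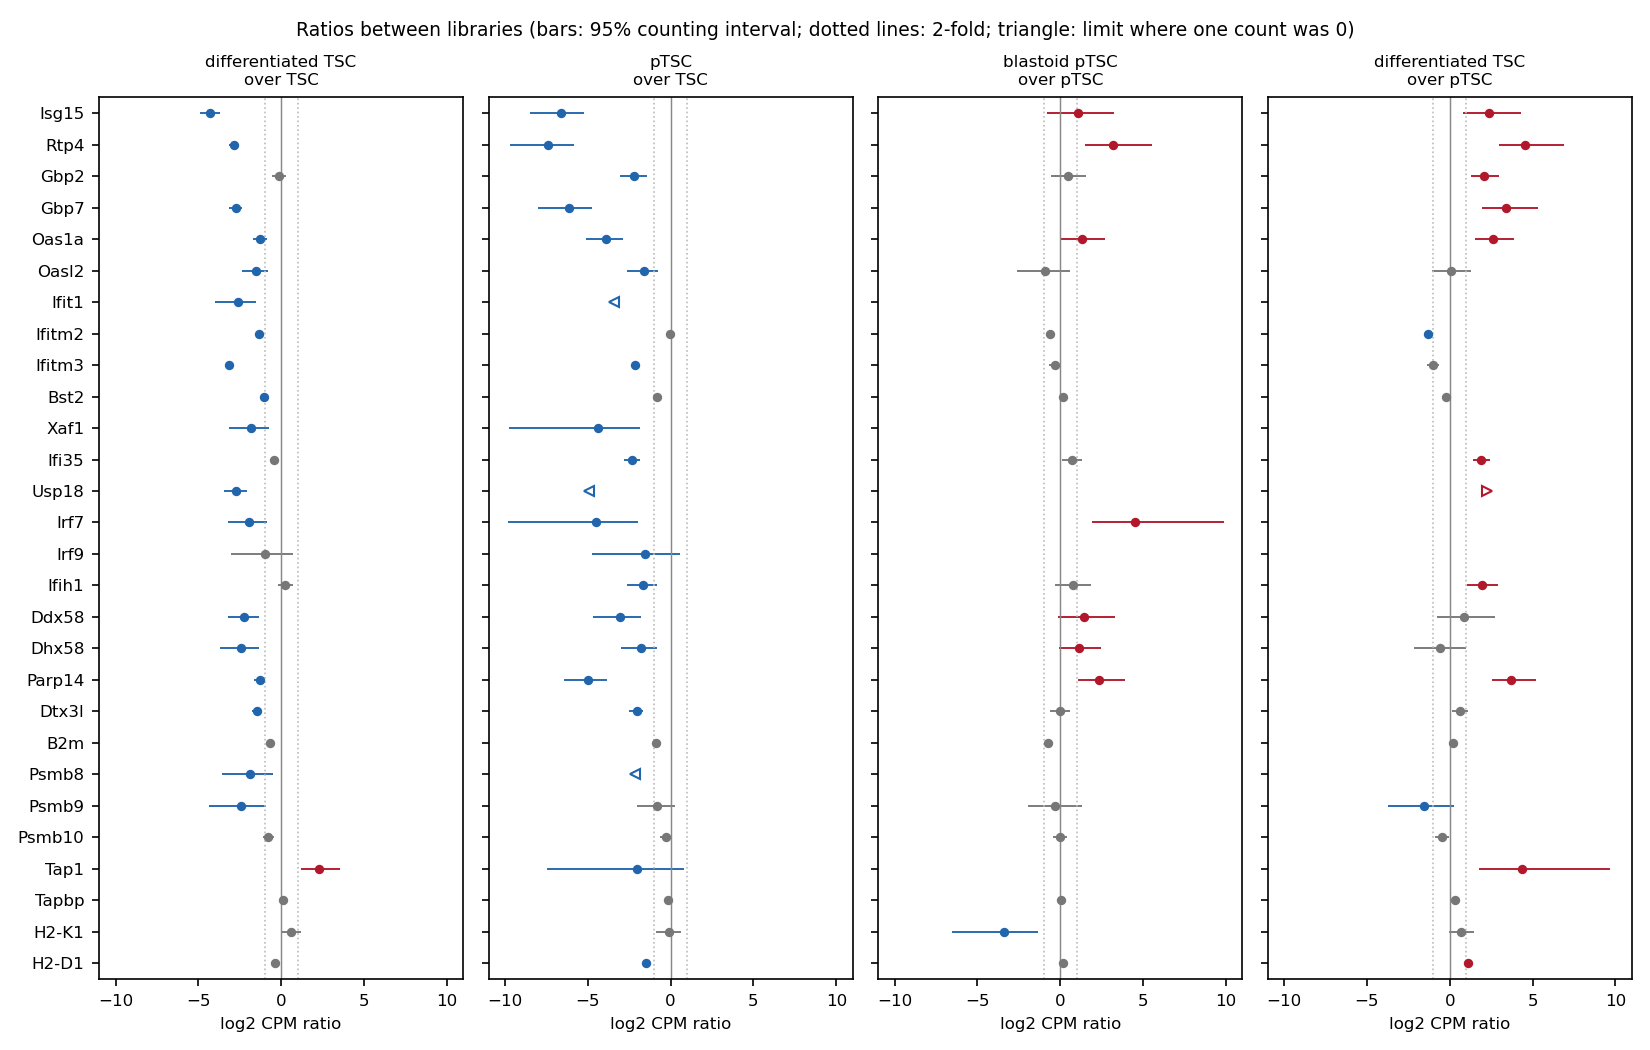
Log2 ratios of CPM (x axis) for each measured gene (y axis) in the 4 comparisons, with 95% counting intervals. Red marks genes at least 2-fold higher, blue at least 2-fold lower and grey the rest. In pTSCs over TSCs the points of 21 genes lie at or beyond 2-fold lower and 0 at 2-fold higher.

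Against TSCs, pTSCs held still fewer transcripts of these genes. These libraries share neither medium nor labelled line, so medium, line and cell state cannot be told apart. Here 28 genes were measured, 14 of them only through the TSC library, and 21 were at least 2-fold lower and 0 higher, where 13.9% of all 12070 measured genes were lower and 17.6% higher. Among the 13 genes with at least 10 UMIs in both, 7 were lower, where 8.27% of all 8629 such genes were. The intervals of Tap1 and Irf9, on 1 and 2 UMIs in pTSCs, include 1. Isg15 had 4 UMIs in pTSCs and 859 in TSCs, a 97.1-fold lower level (37.8 to 357), and Rtp4 had 3 and 1128, 170.1-fold lower (58.0 to 826). Usp18 had 0 UMIs in pTSCs and 206 in TSCs, which with 3 UMIs in place of 0 is at least 31.1-fold lower, and Ifit1, which binds foreign RNA without a proper cap, had 0 and 71, at least 10.7-fold lower by the same limit. The 95% counting intervals of these ratios begin at 25.03-fold for Usp18 and 8.48-fold for Ifit1. Parp14 was 32.0-fold lower (14.6 to 87.8). Of 11 measured TSC markers 2 were at least 2-fold higher in pTSCs and 1 was lower.

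Other genes of the group stood much closer in pTSCs and TSCs. Ifitm2, a relative of Ifitm3, had 235 CPM in pTSCs and 241 in TSCs, a log2 ratio of -0.04 (-0.18 to 0.11), while Ifitm3 had 69.3 and 303, 4.37-fold lower (3.73 to 5.15). Both genes resemble other loci: 52.5% of the 50-base stretches in the last 600 bases of Ifitm2 occur in another annotated transcript, and 11.4% of those of Ifitm3, so that counts may be split between copies. For Oas1a 64.1% are shared with its copy Oas1g. Tapbp (294 CPM in pTSCs, 334 in TSCs), Psmb10 (41.4 and 51.2) and H2-K1 (9.03 and 9.65) lay at most 1.24-fold apart. H2-D1 was 2.76-fold lower in pTSCs (2.59 to 2.94).

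Blastoid pTSCs stood close to pTSCs in the abundant genes and apart in some scarce ones. The labels name line pTS1 for blastoid pTSCs only, so line and blastoid origin cannot be told apart in this comparison. Of 21 measured genes, 7 were at least 2-fold higher and 1 lower, where 13.4% of 11343 genes were higher and 9.42% lower. None of the 11 genes with at least 10 UMIs in both libraries was 2-fold apart, and all 8 calls rest on 1 to 29 UMIs per library. Irf7 had 22 UMIs in blastoid pTSCs and 1 in pTSCs, a ratio of 23.2 (3.74 to 956). Rtp4 had 26 and 3 (9.12, interval 2.80 to 47.1) and Parp14 29 and 6 (5.09, interval 2.08 to 14.99). The lower gene was H2-K1, the other classical heavy chain, with 2 UMIs in blastoid pTSCs and 22 in pTSCs. The ratios of Isg15, Ddx58 and Dhx58 had intervals that include 1. B2m was 1.67-fold lower in blastoid pTSCs (1.496 to 1.86). Blastoid pTSCs also differed from pTSCs in the list of differentiated trophoblast genes, with 8 of 10 measured at least 2-fold higher and 1 lower. Higher as well were both measured immune genes, Cd68 and Csf1r. Their part in these differences was not tested.

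Differentiated TSCs and pTSCs, which share neither medium nor labelled line, differed in both directions. Of 23 measured genes 11 were at least 2-fold higher in differentiated TSCs and 2 lower, where 20.5% of 11503 genes were higher and 22.5% lower. Of these 23 genes, 8 were measured only through the differentiated library, and among the 13 with at least 10 UMIs in both, 4 were higher and 1 lower, where 16.5% of all 8122 such genes were higher and 16.2% lower. Ifi35 was 3.69-fold higher (2.63 to 5.30), Gbp2 4.19-fold higher (2.40 to 7.82), Ifih1 3.80-fold higher (2.08 to 7.51) and H2-D1 2.14-fold higher (2.002 to 2.29), which was under 2-fold with median-of-ratios scaling (log2 ratio 0.97). Ifitm2 was 2.5-fold lower (2.17 to 2.88). This comparison shares a library with each of the comparisons against TSCs and with that of blastoid pTSCs.

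The remaining genes had few UMIs in single cells. Gbp3 and Ifitm1 had no UMI in any of the 4 libraries, and Ifit2, Ifit3, Irf1, Stat2, Tap2, Parp9, Trim25 and Lgals3bp had 0 to 5 in each. Irf9, the DNA-binding partner of STAT2, had 4 UMIs in differentiated TSCs, 3 in blastoid pTSCs, 2 in pTSCs and 13 in TSCs. Counts in these tables moved with the number of transcripts annotated for a gene: the TSC library over the mean of the bulk CDX2-high libraries gave a median log2 ratio of 0.89 over the 360 genes annotated with a single transcript, and of -1.74 over the 3405 that have at least 5. The part of this in the low counts was not tested. H2-K1 has 16 annotated transcripts, Irf1 10, Trim25 3, Stat2 8 and Isg15 1.

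Receptors and kinases, which act upstream of these genes, stood within 2-fold of TSCs. Of 10 receptors and kinases, 9 were measured in differentiated TSCs against TSCs and 7 in pTSCs against TSCs, with 0 at least 2-fold apart in both. Ifnar2, a chain of the type I receptor, stood at 76.8 CPM in differentiated TSCs, 98.0 in blastoid pTSCs, 60.7 in pTSCs and 85.0 in TSCs. Of 11 interferon genes only Ifnk was seen, with 4, 1, 4 and 3 UMIs in the same order. Among 34 other interferon-stimulated genes, 17 were measured in differentiated TSCs against TSCs, with 9 at least 2-fold lower and 0 higher. In pTSCs against TSCs 18 were measured, with 12 lower and 0 higher. Of all measured genes, 18.0% were as much lower in differentiated TSCs and 13.9% in pTSCs. Zbp1, Trim30a, Parp10 and Ifi204, lower in differentiated TSCs, were measured only through the TSC library. Of the genes lower in pTSCs, all but Eif2ak2, Parp12 and Irgm1 were measured only through it. The kinase Eif2ak2, which halts translation on double-stranded RNA, stood at 43.9, 50.1, 25.8 and 174 CPM, and Parp12 at 24.0, 26.3, 16.8 and 103 CPM, in the order differentiated TSCs, blastoid pTSCs, pTSCs and TSCs. Cmpk2, a mitochondrial nucleotide kinase, differed from these with 34.1, 10.8, 2.05 and 34.3 CPM. Lgals9, a lectin, had 8.30, 3.45, 0.410 and 33.2 CPM in that order. Of 5 measured brakes 3 were at least 2-fold higher and 1 lower in differentiated TSCs against TSCs, with Socs1, an inhibitor of JAK kinases, at 121 and 55.9 CPM. All 13 other antigen presentation genes were measured, and in differentiated TSCs against TSCs 2 were at least 2-fold lower and 0 higher, the nonclassical heavy chain H2-T23 (4.61 and 16.7 CPM) and the proteasome subunit Psmb6 (98.9 and 202 CPM).

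The share of wells with a UMI of these genes differed between libraries as well. After each well was thinned to 2000 UMIs, an Isg15 UMI was found in 1.89% of wells in differentiated TSCs (exact binomial interval 0.695 to 4.06), in 0.389% in blastoid pTSCs (0.00985 to 2.15), in 0 of 299 in pTSCs, which with 3 wells in place of 0 allows up to 1.003%, and in 20.1% in TSCs (15.9 to 24.96). Without thinning, 178 of 318 TSC wells (56.0%) held at least 1, and the highest well held 40. With TSC wells thinned to 5000 UMIs, the variance over the mean was above 2 for H2-D1 (9.30), Isg15 (2.36) and Ifitm3 (2.16), as for 3.64% of all 6761 genes, while the median was 1.11 over the 23 genes with at least 50 UMIs and 1.10 over all genes. For the 29 genes outside antigen presentation together, thinned wells held a median of 1 UMI in differentiated TSCs, blastoid pTSCs and pTSCs and 3 in TSCs. At least 5 UMIs of these genes were found in 3.14%, 1.95%, 0.669% and 25.5% of wells in the same order, and the highest TSC well held 18. For the 9 antigen presentation genes the medians were 3, 2, 2 and 4 UMIs.

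**Figure D3:**
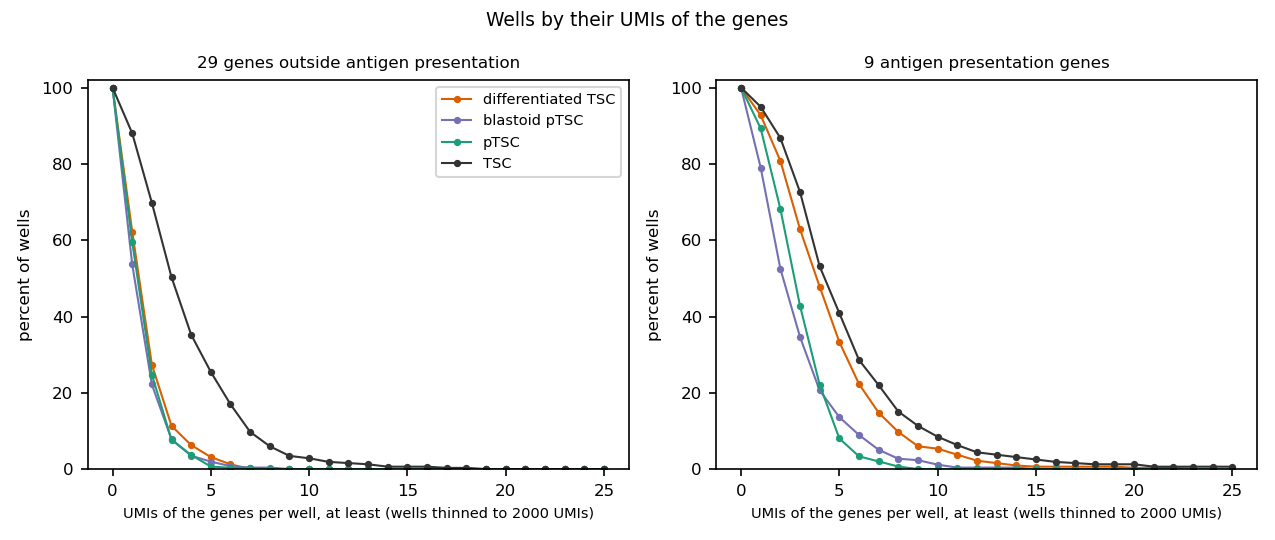
Percent of wells (y axis) that held at least a given number of UMIs (x axis) of the 29 genes outside antigen presentation (left) and of the 9 antigen presentation genes (right), after thinning each well to 2000 UMIs, in each single-cell library. On the left the TSC curve lies above the other three, with 25.5% of wells at 5 UMIs or more against at most 3.14%, while on the right differentiated TSCs (33.3%) lie near TSCs (40.9%).

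These genes also varied together over TSC wells. Of the 38, 23 had at least 50 UMIs there, and Pearson's r was computed over 318 wells on log counts scaled to 10000 UMIs per well. Of 253 pairs, 189 (74.7%) had an r of at least 0.1, where 11.7% of all pairs among 6761 genes with as many UMIs did, and the median r was 0.18 against 0.02. The highest values were 0.51 for Usp18 with Ifit1, 0.49 for Isg15 with Usp18, and 0.45 for Isg15 with Bst2 and with Gbp7. Tapbp and H2-D1 formed the closest pair of antigen presentation genes, at 0.45. Wells share a library and differ in depth, which itself correlated with the mean score of the 23 genes at r = 0.28, so these values are descriptions. With each well thinned to 5000 UMIs (283 wells) 41.9% of the pairs had an r of at least 0.1, against 5.63% of all pairs.

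Against the mean of the other 22 genes, r was highest for Isg15 (0.63), Usp18 (0.59), Ifitm3 (0.58), Bst2 (0.56) and Gbp7 (0.53). Antigen presentation genes were split, with Tapbp (0.49) and H2-D1 (0.49) among the higher values, B2m (0.34) and Psmb10 (0.20) below them and H2-K1 at 0.02. Ifitm2, level between pTSCs and TSCs, was also low at 0.13, and Ifih1 at 0.16. Between groups, the median r of pairs was 0.09 within antigen presentation (10 pairs), 0.20 among the other genes (153 pairs) and 0.13 across (90 pairs). For the 8 genes with enough UMIs in all 4 libraries, Ifitm2, Ifitm3, Bst2, B2m, Psmb10, Tapbp, H2-D1 and Dtx3l, the median r over 28 pairs was 0.05 in differentiated TSCs, 0.00013 in blastoid pTSCs, 0.01 in pTSCs and 0.17 in TSCs, with depths as given above.

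**Figure D4:**
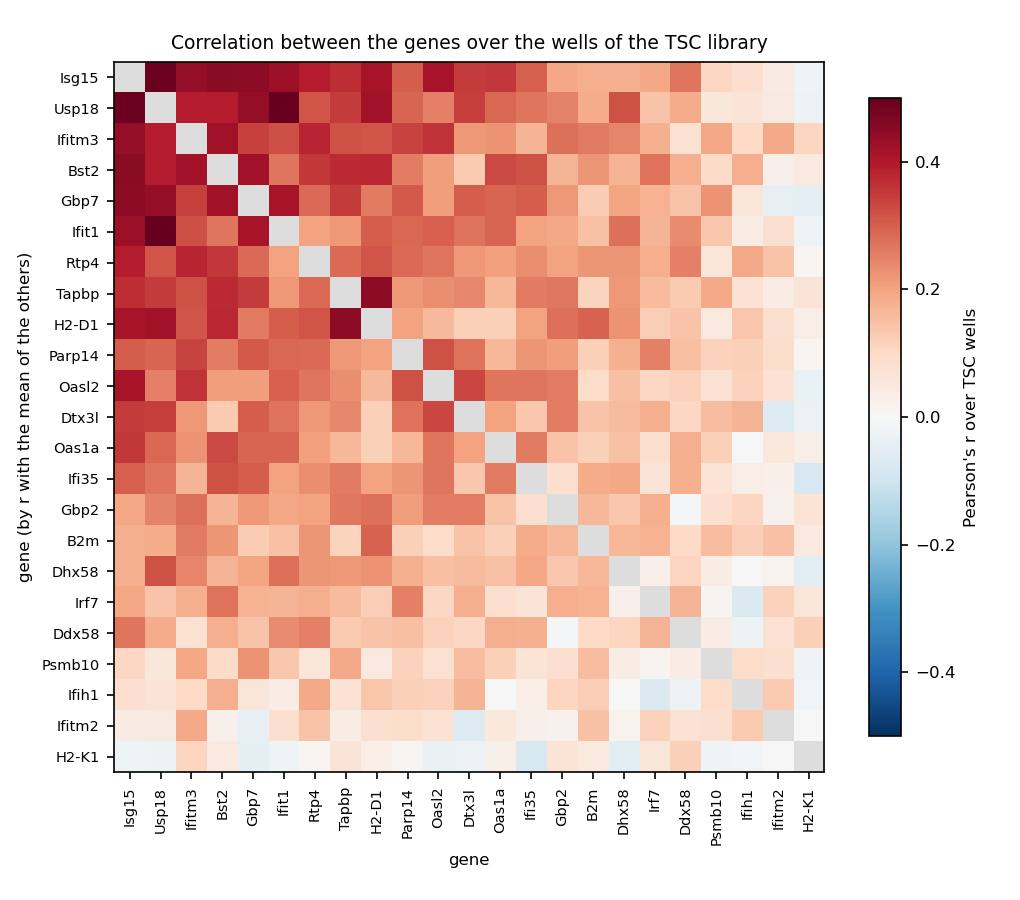
Pearson's r between the 23 genes (both axes, ordered by r with the mean of the others) over 318 TSC wells, red for positive and blue for negative values, grey on the diagonal. The upper left block from Isg15 to H2-D1 holds the highest values, up to 0.51, and the rows of Ifih1, Ifitm2 and H2-K1 are near 0.

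Single wells can be ranked by the mean score. The score includes Isg15, Usp18 and Ifitm3, so their counts in the highest and lowest wells follow in part from the ranking. In the 5 TSC wells with the highest mean score, Isg15 had 15, 20, 27, 8 and 36 UMIs, Usp18 9, 5, 11, 8 and 4, and Ifitm3 38, 50, 28, 26 and 26. In the 5 wells with the lowest score all 3 genes were at 0, but those wells were shallow, with 2384 to 6176 UMIs against 15579 to 28705 in the highest. Among wells thinned to 5000 UMIs, 109 held an Isg15 UMI and 174 did not. Gbp7 was found in 53.2% of the wells with Isg15 (43.4 to 62.8) and in 24.7% of those without (18.5 to 31.8), and Usp18 in 23.9% (16.2 to 33.0) and 7.47% (4.04 to 12.4). Ifitm3 was found in 76.1% and 50.6%, and Tapbp in 87.2% and 66.7%. H2-D1 was found in nearly every well of both kinds, with a mean of 8.54 UMIs per well with Isg15 and 4.87 without. The 3 wells with the most H2-D1 UMIs were not left out of these means. Ifitm2 was found in 66.1% and 70.1%, with overlapping intervals, and B2m in 92.7% and 92.5%.

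Genes outside the 38 were ranked by their r with the mean score of the 23 genes, among 5366 with at least 100 UMIs in TSCs. The closest were Parp12 (0.59), Eif2ak2 (0.48) and Cmpk2 (0.43), all interferon-stimulated, followed by the mitochondrial outer membrane protein Tspo (0.40), the deubiquitinase Usp25 (0.40), the immunity-related GTPase Irgm1 (0.38), the placental homeobox gene Rhox9 (0.37), the glycolytic enzyme Tpi1 (0.36), Grina (0.34), Dnase1l3 (0.34), Parm1 (0.34), Oas3 (0.33), the RNA-binding antiviral protein Zc3hav1 (0.33), App (0.33) and Cln6 (0.33). With wells thinned to 5000 UMIs these values were lower, at 0.38 for Parp12, 0.33 for Eif2ak2, 0.38 for Cmpk2, 0.31 for Usp25 and 0.13 to 0.26 for the other 11. Of all these genes, 0.391% had an r above 0.3, and the median was 0.04. The lowest were the tubulin Tubb5 (-0.30) and the nucleosome assembly factor Nap1l1 (-0.26). Lists of other states moved with the score to a lesser degree. The mean of differentiated trophoblast genes had an r of 0.33 with it, that of G2 and M phase genes -0.18 and that of TSC markers 0.08, where Krt18 (0.28) and Krt8 (0.28) lay above 0 and Sox2 (-0.19) and Eomes (-0.18) below. Their part in the co-variation was not tested.

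Since many of these genes vary together, their promoters were searched on either strand for the ISRE core, which is GAAA, any 2 bases and GAAA. RefSeq windows (GRCm38.p6) from 250 bases before to 50 after the start were at hand for 32 of the 38 genes, and 14 of these genes (43.8%) held it, against 3.99% of 27025 genes in the same table. The longer form, in which CT follows the core, was held by 9 (28.1%) and by 0.303% of all genes. The core TTCNNNGAA of the GAS element, known from promoters that answer to interferon gamma, was held by 8 (25%) and by 9.55%. The forms overlap, as the longer ISRE contains the core. One match per gene is shown in up to 30 bases that begin 10 bases before it, 5′ to 3′ in the gene's own direction. Capitals mark each match that lies whole in these bases, and TTTC, any 2 bases and TTTC is the core on the opposite strand. They are shown because the letters of the element can be compared directly between genes that vary together and genes that do not.
Isg15 (chr4:156200877-156200906, minus strand): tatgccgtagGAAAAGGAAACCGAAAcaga
Ifitm3 (chr7:141010723-141010752, minus strand): caaaattcagGAAAAGGAAActtctgagaa
Bst2 (chr8:71537583-71537612, minus strand): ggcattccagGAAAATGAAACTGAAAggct
Gbp7 (chr3:142530273-142530302, plus strand): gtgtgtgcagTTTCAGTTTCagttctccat
Ifit1 (chr19:34640775-34640804, plus strand): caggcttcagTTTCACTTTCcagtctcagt
Oas1a (chr5:120907526-120907555, minus strand): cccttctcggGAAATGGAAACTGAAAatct
Gbp2 (chr3:142620594-142620623, plus strand): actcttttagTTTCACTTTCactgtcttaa
B2m (chr2:122147538-122147567, plus strand): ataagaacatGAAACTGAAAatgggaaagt
Ddx58 (chr4:40239804-40239833, minus strand): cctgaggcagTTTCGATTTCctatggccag
Ifih1 (chr2:62646206-62646233, minus strand): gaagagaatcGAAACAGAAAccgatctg
Ifitm2 (chr7:140955988-140956017, minus strand): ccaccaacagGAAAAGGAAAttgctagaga
Gbp3 (chr3:142559989-142560018, plus strand): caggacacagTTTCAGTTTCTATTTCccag
Ifit3 (chr19:34583363-34583392, plus strand): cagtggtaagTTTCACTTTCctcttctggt
Stat2 (chr10:128270266-128270295, plus strand): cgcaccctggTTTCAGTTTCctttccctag

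For Isg15, the gene with the highest r with the others, and for B2m, the antigen presentation gene with a match, the 250 bases before the start are given whole, with matches in capitals. Isg15 holds 3 overlapping matches, the first of which begins 78 bases before the start, and B2m holds 1, which begins 139 bases before it.
Isg15 (chr4:156200819-156201068, minus strand): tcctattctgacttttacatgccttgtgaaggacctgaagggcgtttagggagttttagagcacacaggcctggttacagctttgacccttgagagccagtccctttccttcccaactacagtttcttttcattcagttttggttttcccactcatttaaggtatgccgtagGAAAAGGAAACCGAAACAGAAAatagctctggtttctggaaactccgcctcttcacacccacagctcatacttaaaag
B2m (chr2:122147437-122147686, plus strand): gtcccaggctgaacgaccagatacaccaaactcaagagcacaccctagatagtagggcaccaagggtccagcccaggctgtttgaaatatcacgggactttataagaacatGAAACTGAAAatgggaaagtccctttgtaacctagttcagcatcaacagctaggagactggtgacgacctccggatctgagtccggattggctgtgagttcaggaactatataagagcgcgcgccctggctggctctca

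Among genes with a window, those with and without a match had alike median r, but the highest values belonged to genes with a match. No window was at hand for Usp18 (r 0.59), Rtp4 (0.51), Parp14 (0.46), Dhx58 (0.32), Parp9 and Tap2, so whether these hold the core is not known. Among the 19 genes with a window and an r, the median r with the other genes was 0.39 for the 11 with the core (0.13 to 0.63) and 0.39 for the 8 without (0.02 to 0.49). Isg15 (0.63), Ifitm3 (0.58), Bst2 (0.56), Gbp7 (0.53) and Ifit1 (0.52) hold the core and lay above every gene whose window lacks it. Ifitm2 holds a match and had an r of 0.13, while Tapbp and H2-D1 hold none and had 0.49 each. In Ifitm3, Ddx58 and Ifih1 the match shown begins after the start.

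The bulk comparison set these genes against the abundance of CDX2, a transcription factor of the trophoblast stem state. The Cdx2-eGFP transcript had 822, 805 and 735 CPM in CDX2-high libraries, against 42, 50.3 and 106 in CDX2-low libraries. It rose by 3.53 on the log2 scale (adjusted p = 1.31e-08 by edgeR, SE 0.29). Totals were 157588 to 272030 counts in CDX2-high and 116659 to 138966 in CDX2-low libraries. At this depth 7 of the 38 genes could be tested among 3006 genes, and 3 fell and 0 rose, where 5.89% of all tested genes passed, 2.79% as lower and 3.09% as higher. Adjusted p-values, by the method of Benjamini and Hochberg over the 3006 genes, are from the quasi-likelihood test of edgeR. Fewer cells of a type and less RNA per cell cannot be told apart in bulk. No label says that the libraries came from separate cultures, so p-values measure the spread between these libraries.

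Irf1, a transcription factor of the interferon gamma response, had 63.2, 70.0 and 74.2 CPM in CDX2-high libraries and 134, 194 and 158 CPM in CDX2-low libraries. The groups did not overlap, and the log2 fold change was -1.23 (SE 0.31, adjusted p = 0.0172, edgeR). H2-D1 had 56.9, 42.8 and 33.4 CPM in CDX2-high libraries, on 9 to 11 counts each, and 109, 86.2 and 173 CPM in CDX2-low libraries, on 12 to 23. Its log2 fold change was -1.53 (SE 0.39, adjusted p = 0.0182, edgeR). Tapbp had 82.2, 50.5 and 44.5 CPM in CDX2-high libraries and 151.1, 136 and 128 CPM in CDX2-low libraries, a log2 fold change of -1.30 (SE 0.35, adjusted p = 0.0244, edgeR). These 2 genes were the closest antigen presentation pair over TSC wells as well.

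B2m pointed the other way, with 139, 101 and 122 CPM in CDX2-high libraries and 50.4, 43.1 and 82.9 CPM in CDX2-low libraries. The groups did not overlap, but the log2 fold change of 0.99 did not pass (adjusted p = 0.123, edgeR). Xaf1 had 867 to 931 CPM in CDX2-high and 573 to 826 CPM in CDX2-low libraries, a difference of 0.41 on the log2 scale (adjusted p = 0.262, edgeR). H2-K1 had 253 to 375 and 362 to 546 CPM, and Trim25, the ubiquitin ligase that activates RIG-I, 74.2 to 101 and 67.9 to 126 CPM, neither of which passed. The groups did not overlap for 5 of the 7 genes, against 22.9% of all tested genes. Without CDX2-high library 38 or 39 no gene of the 38 passed, and by DESeq2 none passed either (adjusted p = 0.0772 for Irf1, 0.0746 for H2-D1 and 0.103 for Tapbp).

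**Figure D5:**
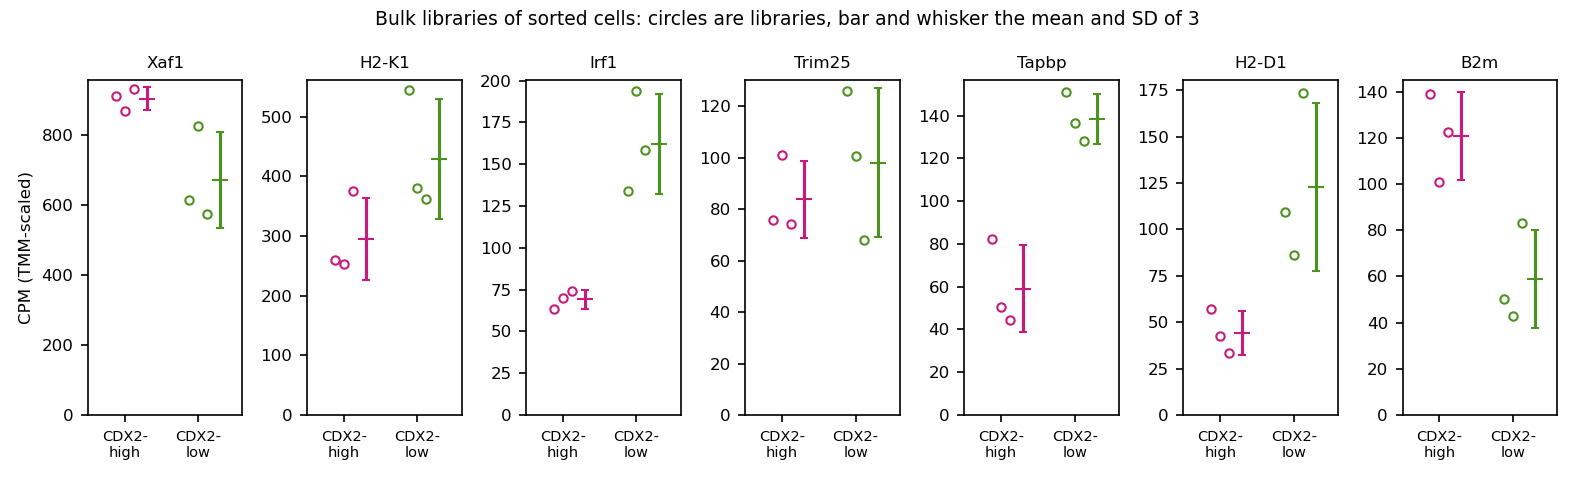
CPM scaled by TMM (y axis from 0, one scale per gene) in CDX2-high and CDX2-low libraries for the 7 tested genes, with each library as a circle and the mean and SD of 3 libraries as a bar. For Irf1, H2-D1 and Tapbp the CDX2-high libraries lie below all CDX2-low libraries, and for Xaf1 and B2m above them.

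The other 31 genes were too scarce in bulk to be tested. Isg15 had 1 count in all 3 CDX2-high libraries and 1 in all 3 CDX2-low libraries, Gbp7 likewise, Rtp4 0 and 4 counts, Usp18 0 and 1, and Ifit1, Ifit2, Ifit3 and Gbp3 none. Ifitm3 had 1 count in CDX2-high and 7 in CDX2-low libraries. Set beside this, and across tables that were counted and scaled separately, TSCs in the single-cell library stood at 159 CPM for Isg15, and the bulk libraries averaged 1.24 ± 2.14 CPM in CDX2-high and 2.80 ± 4.85 CPM in CDX2-low (SD, n = 3 each). Isg15 has 1 annotated transcript, the class for which the single-cell table read higher than bulk by a median of 0.89 on the log2 scale. Rtp4 has 5, the class with a median of -1.74. It stood at 209 CPM in TSCs in the single-cell library, against means of 0 CPM in CDX2-high and 9.81 CPM in CDX2-low libraries. Other genes of the 38 stood the other way. Xaf1 had 8.72 CPM in TSCs in the single-cell library, against means of 903 CPM in CDX2-high and 670 CPM in CDX2-low libraries. H2-K1 had 9.65 CPM against 296 and 429, and Irf1 0.186 CPM against 69.1 and 162. The part of transcript number in these gaps was not tested. Bst2 (46.6 to 94.9 CPM in CDX2-high, 45.2 to 92.3 in CDX2-low) and Ifi35 (14.8 to 69.6 and 37.7 to 50.4) were present in every bulk library. Among lists of the pathway, 0 of 10 receptors and kinases reached the minimum for testing. Of 2 tested brakes Socs3 fell (log2 fold change -1.89, adjusted p = 0.0119, edgeR), of 2 tested other interferon-stimulated genes Lgals9 fell (-3.07, adjusted p = 0.000435, edgeR), and of 8 tested other antigen presentation genes the proteasome activator Psme2 fell (-1.15, adjusted p = 0.0228, edgeR), with 0 risen in each list. Of 4 tested differentiated trophoblast genes 3 fell, and of 12 G2 and M phase genes 2 rose. Of 9 tested TSC markers 2 fell, Krt8 and Krt18, and 0 rose, and of 7 tested S phase genes 1 rose, Rrm2. Their part in the fall of Irf1, H2-D1 and Tapbp was not tested.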

How the data were processed

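CEL-Seq2 libraries were aligned with STAR 2.5.3a, per the submitters' processing notes; build, annotation and counting program: not given in the sources used here. The bulk table holds read or UMI counts per gene as deposited. The authors' single-cell tables hold estimated counts per gene and well, which came as whole numbers and were used as deposited. The 38 genes and all lists were chosen with earlier results of these data known. All 38 are accounted for; other genes were named by list, by passing in bulk, or as the 15 most alike over TSC wells. 0 columns of the tables were left unused.

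Wells entered with 2000 or more non-mitochondrial UMIs, without a doublet caller, and were summed per library. CPM is relative to all UMIs of the kept wells. Poisson, conditional binomial and Clopper-Pearson intervals (95%) cover counting error only. Bulk counts were tested with edgeR 4.0.16 (R 4.3.3, limma 3.58.1): filterByExpr, TMM scaling, quasi-likelihood test, adjusted p threshold 0.05. DESeq2 1.42.0 was an alternative. The steps were tested on simulated data. Python 3.11.15, numpy 2.4.6, pandas 2.3.3, scipy 1.17.1 and matplotlib 3.10.9 were used. Transcript numbers and shared 3′ ends come from GENCODE M21 transcripts (50-base stretches of the last 600 bases), promoters from RefSeq (GRCm38.p6).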

Additional observations from a re-analysis of the deposited data

How the results depend on the processing

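Bulk calls were few and shallow. DESeq2 called 88 genes and 0 of the 38 (4 of the 38 at an unadjusted p under 0.05, against 6 by edgeR). Without the low-count filter 1 of the 38 fell, and after thinning to the smallest total 101 genes passed and 1 of the 38 fell. Leaving out each library in turn gave 81 to 189 genes and 0 to 2 of the 38; the adjusted p over these and the other alternatives ran from 0.0168 to 0.0787 for Irf1, 0.0106 to 0.166 for H2-D1 and 0.0248 to 0.143 for Tapbp, and all 3 kept their sign. No paired analysis was possible because the replicate numbers run on from one group to the other.

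With a minimum of 50 UMIs, 0 of the 38 were at least 2-fold higher in differentiated TSCs over TSCs, 0 higher and 0 lower in blastoid pTSCs over pTSCs, and 1 lower in differentiated TSCs over pTSCs; with the mean of per-well CPM, 2 were lower in blastoid pTSCs over pTSCs, and 16 in place of 18 in differentiated TSCs over TSCs. With median-of-ratios scaling, 10 were higher and 3 lower in place of 11 and 2 in differentiated TSCs over pTSCs. No ratio called 2-fold reversed. Pairs with an r of at least 0.1 came to 41.9% after thinning to 5000 UMIs. Wells with an Isg15 UMI came to 4.42% in differentiated TSCs and 38.5% in TSCs with wells thinned to 5000 UMIs, and to 7.23% in differentiated TSCs, 2.72% in blastoid pTSCs and 56.0% in TSCs without thinning. The longer ISRE form was held by 9 genes.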
